A study of Mus musculus with 4 samples.

Results

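The genes described here make ribosomes. They are 40 genes that encode RNA polymerase I, nucleolar proteins and factors that process and assemble ribosomal RNA, taken as a list of names that was drawn up with earlier results of these arrays known, and found in the deposited table through Entrez gene IDs. All 40 had a probe set, among 23185 probe sets with a gene symbol and 25206 in all. The study measured RNA of 4 mouse cell populations on Affymetrix arrays, with 1 array for each. Day0 cells were club cells, secretory cells of the airway lining, taken fresh from adult lung. Cells of the 3w+Dox array, called Club-iPL in the labels, were isolated club cells grown for 3 weeks with doxycycline, a drug that switches on inducible transgenes. Cells of the 3w+Dox+2w-Dox array, called withdrawn cells below, had 2 further weeks without it. The last array held Club-iPS cells, induced pluripotent stem (iPS) cells named for club cells in the labels. The sources used here do not state the mouse strain, the transgenes, any sort or feeder layer, pooling of animals or whether the iPS cells were 1 clone.

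Ribosomes are built in the nucleolus. RNA polymerase I copies the ribosomal DNA into a long precursor RNA, small nucleolar RNA-protein particles (snoRNPs) modify it, and large sets of processing factors fold and cleave it while the small and the large subunit take shape around it. The pathway is known for running fast in growing and dividing cells, pluripotent stem cells among them, and for responding to the transcription factor Myc, which binds the letters CACGTG (an E-box).

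The promoters of the genes are shown first because Myc family genes differ widely between these arrays. RefSeq promoter sequences (GRCm38.p6, 250 bases before to 50 bases after a gene's start) were matched for 32 of the 40 genes, with 35 promoters in all. CACGTG, which reads the same on both strands, lay in the promoters of 6 of these 32 genes (18.8%), Nop2, Pes1, Rrn3, Utp18, Utp20 and Wdr43. It lay in 9.19% of the named genes with a promoter entry and in 7.15% of all 32851 promoters. TATAAA, searched on both strands, lay in 2 of the 35 promoters (5.71%) and in 13.6% of all promoters. The 3 promoters with CACGTG before the gene's start are printed below with that motif in capitals, as the 250 bases that end just before the start. They belong to Nop2 (chr6:125131633-125131882, plus strand), an RNA methyltransferase of the large subunit, Utp18 (chr11:93885767-93886016, minus strand), a small subunit processing factor, and Rrn3 (chr16:13780449-13780698, plus strand), the factor that lets RNA polymerase I start.
Nop2 promoter: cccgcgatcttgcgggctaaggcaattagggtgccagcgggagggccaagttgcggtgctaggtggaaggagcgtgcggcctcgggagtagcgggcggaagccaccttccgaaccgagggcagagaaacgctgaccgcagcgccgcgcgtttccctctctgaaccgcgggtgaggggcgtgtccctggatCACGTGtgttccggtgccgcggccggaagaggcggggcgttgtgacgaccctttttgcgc
Utp18 promoter: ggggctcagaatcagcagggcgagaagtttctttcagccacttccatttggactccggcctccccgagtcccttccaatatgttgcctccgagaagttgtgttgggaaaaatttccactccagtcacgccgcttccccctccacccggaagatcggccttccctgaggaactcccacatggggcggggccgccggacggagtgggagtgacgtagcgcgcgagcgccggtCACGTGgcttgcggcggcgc
Rrn3 promoter: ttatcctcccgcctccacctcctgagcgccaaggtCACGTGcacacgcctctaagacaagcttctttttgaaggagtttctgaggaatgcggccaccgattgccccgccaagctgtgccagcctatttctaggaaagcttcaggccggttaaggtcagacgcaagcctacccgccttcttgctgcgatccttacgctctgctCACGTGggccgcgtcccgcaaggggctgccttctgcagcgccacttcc
The motif of Nop2 begins 60 bases before the start and that of Utp18 begins 20 bases before it, and Rrn3 has a pair that begin 215 and 48 bases before it. A match describes the letters of a promoter and is no evidence that a factor binds there.

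Signals are RMA log2 values, so a difference of 1 is 2-fold. With 1 array per population there is no spread between replicates, no difference has a replicate check, and no test was made. A gene counts as higher or lower for a difference of 2-fold or more, provided that the larger signal reaches 6.67, the table's median value. RMA gives every array nearly the same distribution of signals, so a change in total RNA per cell does not show, and in these bulk samples fewer cells of a type and less RNA per cell cannot be told apart.

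Signals of cell type markers differed between the populations. At Day0, 10 of 10 club, 10 of 10 ciliated and 8 of 8 alveolar type 2 markers lay at or above 6.67, with 4 of 12 fibroblast markers. All 12 fibroblast markers did so on the 3w+Dox, withdrawn and iPS arrays, with medians of 12.20, 12.00 and 9.59 against 6.22 at Day0. Leukocyte markers had medians of 6.45 in Day0 cells, 9.78 after 3w+Dox, 9.88 after withdrawal and 6.89 in iPS cells. On the same arrays in that order, club markers had medians of 13.28, 11.19, 11.94 and 6.04. Ciliated markers had 9.11, 5.77, 7.50 and 5.72, and alveolar type 2 markers 12.33, 10.95, 11.11 and 6.21. General epithelial markers had 11.84, 12.05, 10.62 and 9.89, so the cultures carried epithelial, fibroblast and leukocyte signals. Of 10 pluripotency markers, 9 lay at or above 6.67 on the iPS array and 1 on each other array. Proliferation genes had medians of 7.86 in Day0 cells, 8.87 after 3w+Dox, 8.60 after withdrawal and 11.81 in iPS cells. The part of cell type and proliferation marker differences in the results below was not tested.

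The 40 listed ribosome biogenesis genes were brightest in iPS cells, and most differed little between the fresh and the cultured club cell populations. All 40 genes had their highest signal on the iPS array, against 38.0% of the 14131 named genes that reached 6.67 on any array. The median over the 40 genes was 8.73 in Day0 cells, 8.62 after 3w+Dox, 8.57 after withdrawal and 10.48 in iPS cells. On the iPS array 34 of the 40 were at least 2-fold higher than at Day0 and 0 were lower, against 13.1% of all named genes higher and 12.4% lower, or 22.8% and 21.6% of genes that reached 6.67 on either array. The median difference was 1.85, which is 3.61-fold, beside 0.00 over all named genes. Of the 40 genes, 13 were at least 4-fold higher, against 4.89% of all named genes. On the same arrays all 11 measured proliferation genes were at least 2-fold higher in iPS cells than at Day0, by a median of 3.72.

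**Figure D1:**
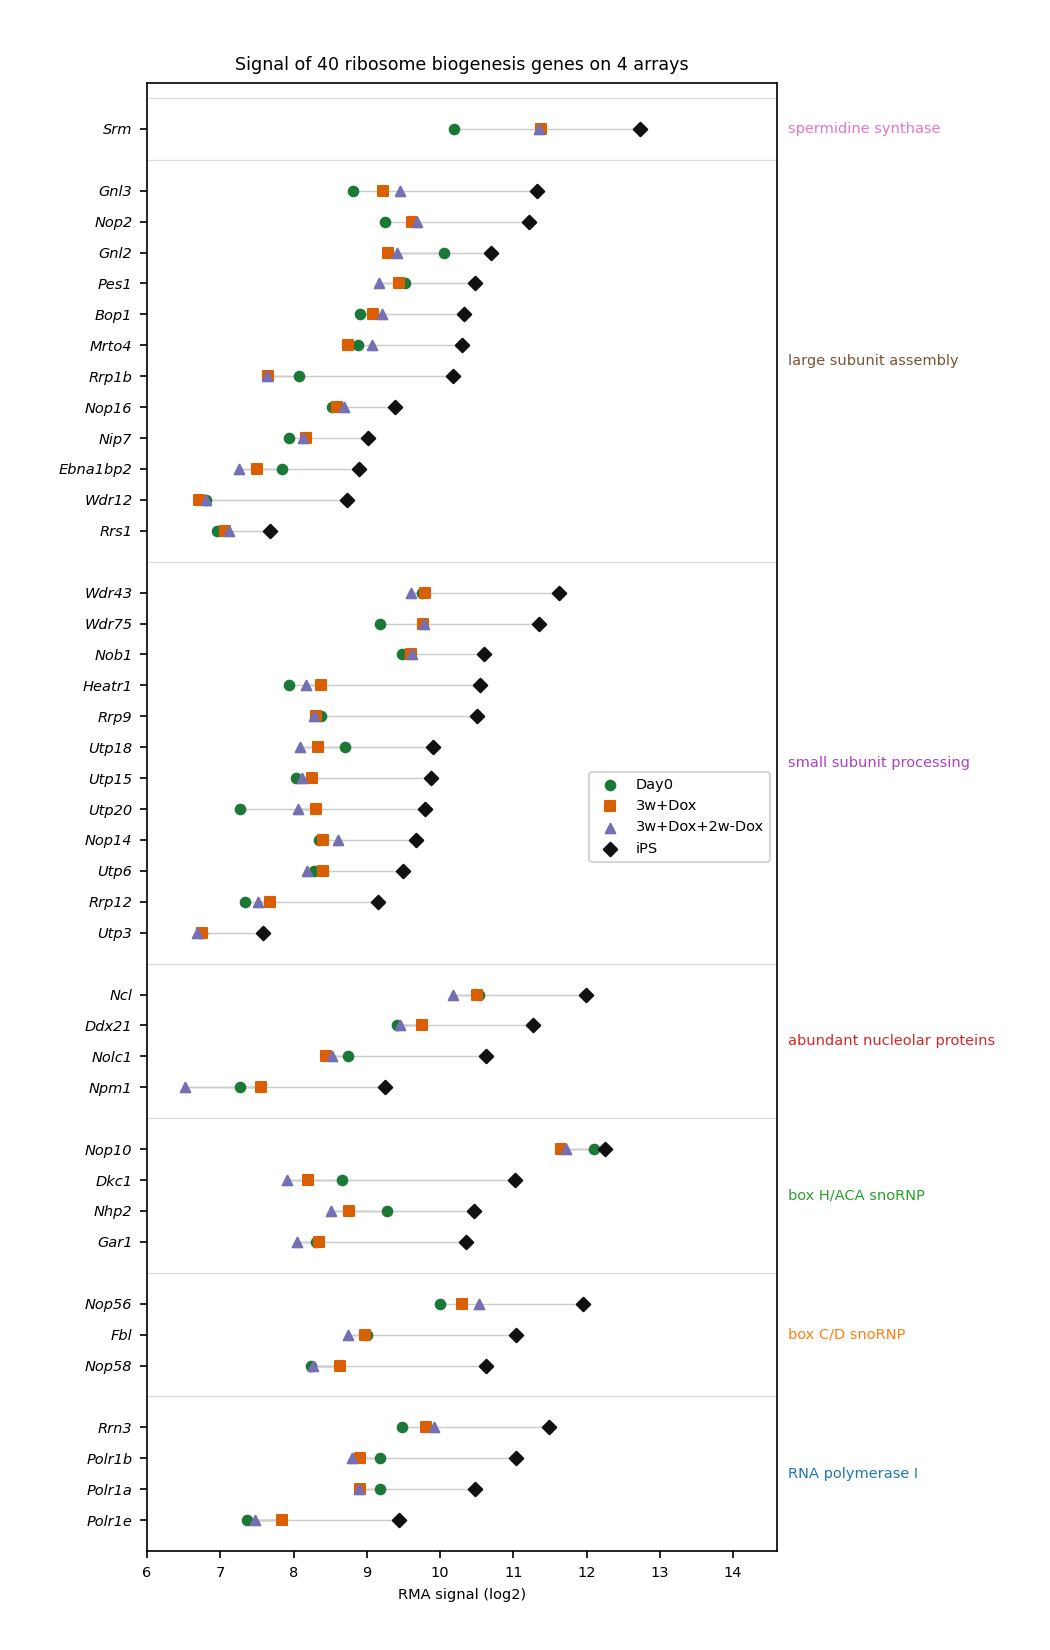
RMA signal (log2, horizontal axis) of each of the 40 genes (rows, grouped by role) on the 4 arrays, 1 point per array. The black diamond of the iPS array is the rightmost point in all 40 rows, and the other 3 points lie within 2-fold of each other in 37 rows, all but those of Srm, Utp20 and Npm1.

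The 3 arrays other than iPS were close for most of these genes. They lay within 1.5-fold of each other for 31 of the 40 genes, against 48.3% of the named genes that reached 6.67, and within 2-fold for 37, against 68.2%. The median range over these 3 arrays was 0.36 for the 40 genes and 0.61 for the named genes. The iPS signal stood above the brightest of the other 3 arrays by a median of 1.49, and at least 2-fold for 32 of the 40 genes, against 12.9% of the named genes. It was at least 4-fold for 6 genes, Dkc1, Heatr1, Rrp9, Rrp1b, Fbl and Gar1, against 4.32%. In 38 of the 40 genes that gap exceeded the whole range of the other 3 arrays, against 3562 of the 14131 named genes. The exceptions among the 40 were Nop10 and Gnl2.

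**Figure D2:**
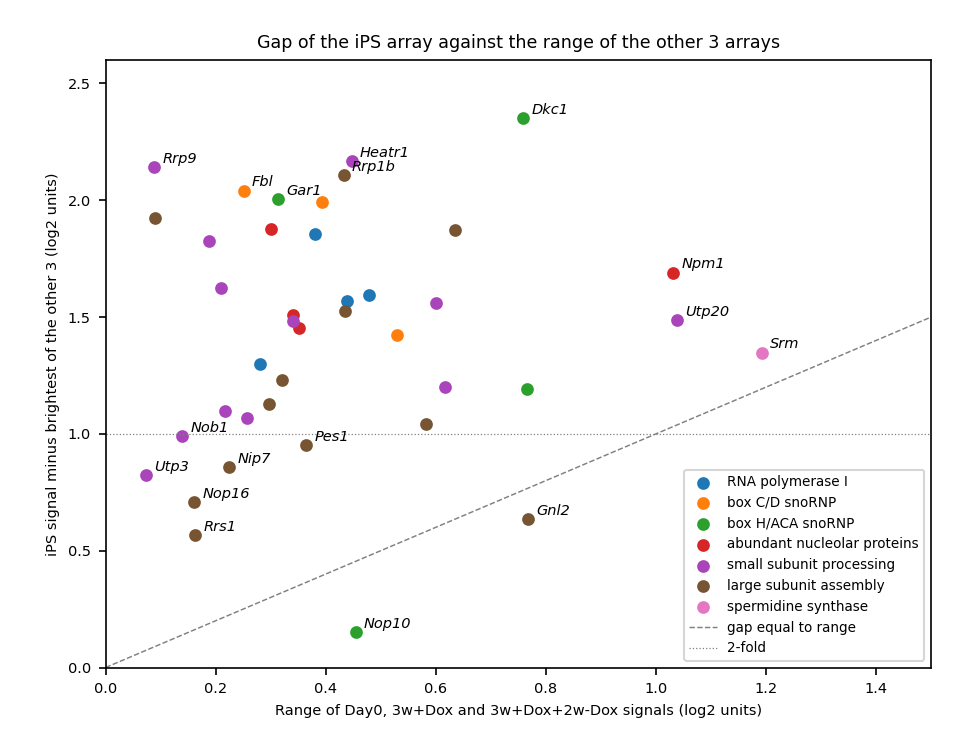
Each point is 1 of the 40 genes. The horizontal axis gives the range of the Day0, 3w+Dox and 3w+Dox+2w-Dox signals and the vertical axis the iPS signal minus the brightest of those 3 (both in log2 units). Nop10 and Gnl2 lie below the dashed line where gap and range are equal, and Srm, Npm1 and Utp20 have ranges above 1.

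The genes of RNA polymerase I were all at least 2-fold higher in iPS cells than at Day0, and less than 1.5-fold from Day0 in the club cell cultures. Polr1b (Entrez gene 20017), the second largest subunit, read 9.18 in Day0 cells, 8.90 after 3w+Dox, 8.80 after withdrawal and 11.03 in iPS cells. Polr1a, the largest subunit, read 9.17, 8.91, 8.89 and 10.47 on the same arrays in that order. Both subunits were lower in the cultures than at Day0 by less than 1.5-fold and higher in iPS cells, Polr1b 3.61-fold and Polr1a 2.46-fold above Day0. Polr1e, a subunit that helps the enzyme engage its promoter, read 7.36, 7.84, 7.47 and 9.44. Rrn3 (Entrez gene 106298), which couples growth signals to the start of transcription, read 9.48, 9.81, 9.92 and 11.49. Polr1e and Rrn3 had their lowest signal at Day0, and stood 4.21-fold and 4.02-fold above it in iPS cells.

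Most of the wider polymerase I machinery was higher in iPS cells than at Day0, by smaller amounts. Of 11 other subunits and factors, 10 lay above Day0, 4 of them at least 2-fold, and 0 were at least 2-fold lower. The shares of all named genes were 13.1% and 12.4%, or 22.8% and 21.6% of those that reached 6.67 on either array. The 11 genes had a median difference of 0.83, against 1.93 for the 4 polymerase I genes of the listed 40. Ubtf, which keeps the ribosomal DNA open for transcription, read 10.24, 10.39, 10.33 and 10.92. Taf1d, a subunit of the selectivity factor at the ribosomal promoter, was the furthest apart at 1.64. Taf1a, another subunit of that factor, read 8.42, 7.15, 6.96 and 8.12, and was the only gene of the 11 with its highest signal off the iPS array. Subunits found only in RNA polymerase II differed between iPS and Day0 by a median of 0.69 over 7 genes, and those of RNA polymerase III by 0.64 over 10. Over 4 measured subunits shared between polymerases the median was 0.39, with 0 at least 2-fold higher and 1 lower. Of these 4, 2 had their highest signal on the iPS array.

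The core proteins of the box C/D snoRNPs, which add methyl groups to ribosomal RNA, differed between iPS and Day0 by nearly equal amounts. Fbl (Entrez gene 14113), the methyltransferase fibrillarin, read 9.00 in Day0 cells, 8.98 after 3w+Dox, 8.75 after withdrawal and 11.04 in iPS cells. Its scaffold partners Nop56 and Nop58 read 10.00, 10.31, 10.53 and 11.95, and 8.24, 8.64, 8.26 and 10.63. The iPS signals exceeded Day0 by 2.04, 1.95 and 2.38, and on the other 3 arrays each gene stayed within a range of 0.53.

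The box H/ACA snoRNPs turn uridine of ribosomal RNA into pseudouridine, and their 4 core genes did not move alike. Dkc1 (Entrez gene 245474), the pseudouridine synthase dyskerin, read 8.67 in Day0 cells, 8.20 after 3w+Dox, 7.91 after withdrawal and 11.02 in iPS cells. Gar1 read 8.31, 8.35, 8.04 and 10.36, and Nhp2 read 9.28, 8.75, 8.51 and 10.47. Dkc1 had the largest gap of all 40 genes between iPS cells and the brightest other array, 2.35, and was 8.62-fold higher in iPS than in withdrawn cells. Nop10 (Entrez gene 66181), the smallest core protein, read 12.11, 11.65, 11.71 and 12.26. It had the smallest iPS difference of the 40 genes, 0.15 from Day0. Its signals lie in the upper part of the scale of these arrays, which ends at 13.85. All 4 genes were lower in withdrawn cells than at Day0, by a median of 0.57, and Nhp2 and Dkc1 had the largest decreases of the 40 genes in that comparison (0.76 each). Over all named genes this difference had a median of -0.08.

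Abundant nucleolar proteins were all at least 2-fold higher in iPS cells than on each other array. Ncl, nucleolin, which binds nascent ribosomal RNA, read 10.53 in Day0 cells, 10.51 after 3w+Dox, 10.18 after withdrawal and 11.99 in iPS cells. Nolc1, a chaperone of snoRNPs, read 8.75, 8.45, 8.53 and 10.63, and Ddx21, an RNA helicase of the nucleolus, read 9.42, 9.76, 9.45 and 11.27. Npm1 (Entrez gene 18148), nucleophosmin, read 7.27, 7.56, 6.52 and 9.25. The withdrawn cells were thus lowest for Npm1, 2.04-fold below 3w+Dox. Their reading of 6.52 lies below 6.67, the table's median value. Npm1 has many pseudogenes, and its probe set could read such copies.

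Among the 12 small subunit processing factors, 11 were at least 2-fold higher in iPS cells than at Day0, against 13.1% of all named genes. Heatr1 (Entrez gene 217995), a scaffold that joins the precursor RNA as it is made, read 7.93 in Day0 cells, 8.38 after 3w+Dox, 8.18 after withdrawal and 10.55 in iPS cells, 6.13-fold above Day0 and the largest such difference of the 40 genes. Wdr75, a partner in the same early complex, read 9.19, 9.77, 9.79 and 11.34, and the partners Utp15 and Wdr43 differed between iPS and Day0 by 1.83 and 1.87. Rrp9, a protein of the U3 snoRNP that guides the first cleavages, read 8.37, 8.31, 8.28 and 10.51, so the fresh and the cultured cells lay within a range of 0.09 and iPS cells 4.41-fold above Day0. Utp20 (Entrez gene 70683), a very large processing factor, followed another course and read 7.27, 8.30, 8.06 and 9.79. Its 3w+Dox signal stood 2.05-fold above Day0.

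Most of the remaining small subunit factors showed smaller gaps. Rrp12, which acts in late maturation and export, differed between iPS and Day0 by 1.83 and Utp6 by 1.22. Nop14, which is needed for small subunit assembly, read 8.35, 8.41, 8.60 and 9.67, and Utp18 read 8.70, 8.34, 8.09 and 9.90. Utp18 was thus lowest after withdrawal, by 0.62 from Day0, and Nop14 lowest at Day0. Nob1, the nuclease that makes the final cut of the small subunit RNA, read 9.48 in Day0 cells, 9.60 after 3w+Dox, 9.61 after withdrawal and 10.60 in iPS cells, 2.19-fold above Day0. Utp3 read 6.75, 6.75, 6.68 and 7.58, and was the only gene of the 12 that stayed under 2-fold. Of 47 further small subunit factors, 26 were at least 2-fold higher in iPS cells than at Day0 and 0 lower. The shares of all named genes were 13.1% and 12.4%. The 47 factors had a median difference of 1.19. Lyar, a nucleolar protein, was the furthest apart at 2.73, followed by Rcl1, which takes part in early cleavage, at 2.71 and Utp14a at 2.37. The exceptions were Utp11 (-0.40), Rrp7a (-0.21), Tsr2 (-0.19) and Riok3 (-0.02), which lay below Day0 and had their highest signal off the iPS array.

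Large subunit assembly factors were uneven, with 8 of 12 at least 2-fold higher in iPS cells than at Day0, against 13.1% of all named genes. The 12 factors had a median difference of 1.25. Gnl3 (Entrez gene 30877), the nucleolar GTPase nucleostemin known from stem cells, read 8.81 in Day0 cells, 9.22 after 3w+Dox, 9.45 after withdrawal and 11.32 in iPS cells. Rrp1b read 8.07, 7.65, 7.64 and 10.18, and Nop2 read 9.25, 9.62, 9.68 and 11.21. Gnl3 was 5.70-fold, Rrp1b 4.31-fold and Nop2 3.89-fold above Day0 in iPS cells. Gnl2 (Entrez gene 230737), a GTPase related to Gnl3, read 10.05, 9.29, 9.41 and 10.69. It had the largest decrease of the 40 genes at 3w+Dox, 0.77 below Day0, and stood only 0.64 above Day0 in iPS cells but 1.40 above 3w+Dox.

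The subunits of a single complex differed too. Pes1, Bop1 and Wdr12 form the PeBoW complex, which is needed for large subunit RNA processing. Wdr12 read 6.80 in Day0 cells, 6.72 after 3w+Dox, 6.81 after withdrawal and 8.73 in iPS cells, Bop1 read 8.91, 9.09, 9.20 and 10.33, and Pes1 read 9.53, 9.44, 9.16 and 10.48. Their iPS differences from Day0 were 1.93, 1.42 and 0.95, while each stayed within 0.36 on the other 3 arrays. Mrto4, which holds the place of the ribosomal stalk, read 8.88, 8.75, 9.07 and 10.29.

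The other large subunit factors had smaller differences between iPS and Day0 than the group's median of 1.25, as Gnl2 and Pes1 did. Rrs1, which helps to seat the 5S particle, read 6.95 in Day0 cells, 7.06 after 3w+Dox, 7.12 after withdrawal and 7.68 in iPS cells, Nop16 read 8.52, 8.60, 8.68 and 9.39, and Nip7 read 7.94, 8.16, 8.13 and 9.02. Each was lowest at Day0. The iPS differences from Day0 were 0.73 for Rrs1, 0.87 for Nop16, 1.08 for Nip7 and 1.04 for Ebna1bp2. Of 58 further large subunit factors, 39 were at least 2-fold higher in iPS cells than at Day0 and 0 lower. The shares of all named genes were 13.1% and 12.4%. The 58 factors had a median difference of 1.30. Mdn1, a giant ATPase that strips assembly factors from the large subunit, read 7.02, 7.75, 7.33 and 10.23, the largest difference of the list at 3.21, and Sbds, which acts in the last step, was the only gene of the 58 below Day0, at -0.43.

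Other parts of the pathway followed the same direction in iPS cells. Of 11 genes of the RNA exosome, which trims the precursor, 6 were at least 2-fold higher than at Day0 and 0 lower, led by the nuclease Dis3 at 1.94, and of 10 snoRNP assembly genes 7 were higher and 0 lower, led by Tcof1, treacle, a partner of polymerase I, at 2.38. Cytosolic ribosomal protein genes differed by a median of 0.71, with 18 of 53 measured genes at least 2-fold higher and 0 lower. Of all named genes, 13.1% were higher and 12.4% lower, or 22.8% and 21.6% of those that reached 6.67 on either array. Of the 53 ribosomal protein probe sets, 12 lay below 6.67 on every array, Rpl10 reading 3.36 at Day0. Ribosomal protein genes have many pseudogenes, and a further 26 of the 79 listed genes had no named probe set, so this count is uncertain. The lists were chosen with earlier results on these arrays known.

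**Figure D3:**
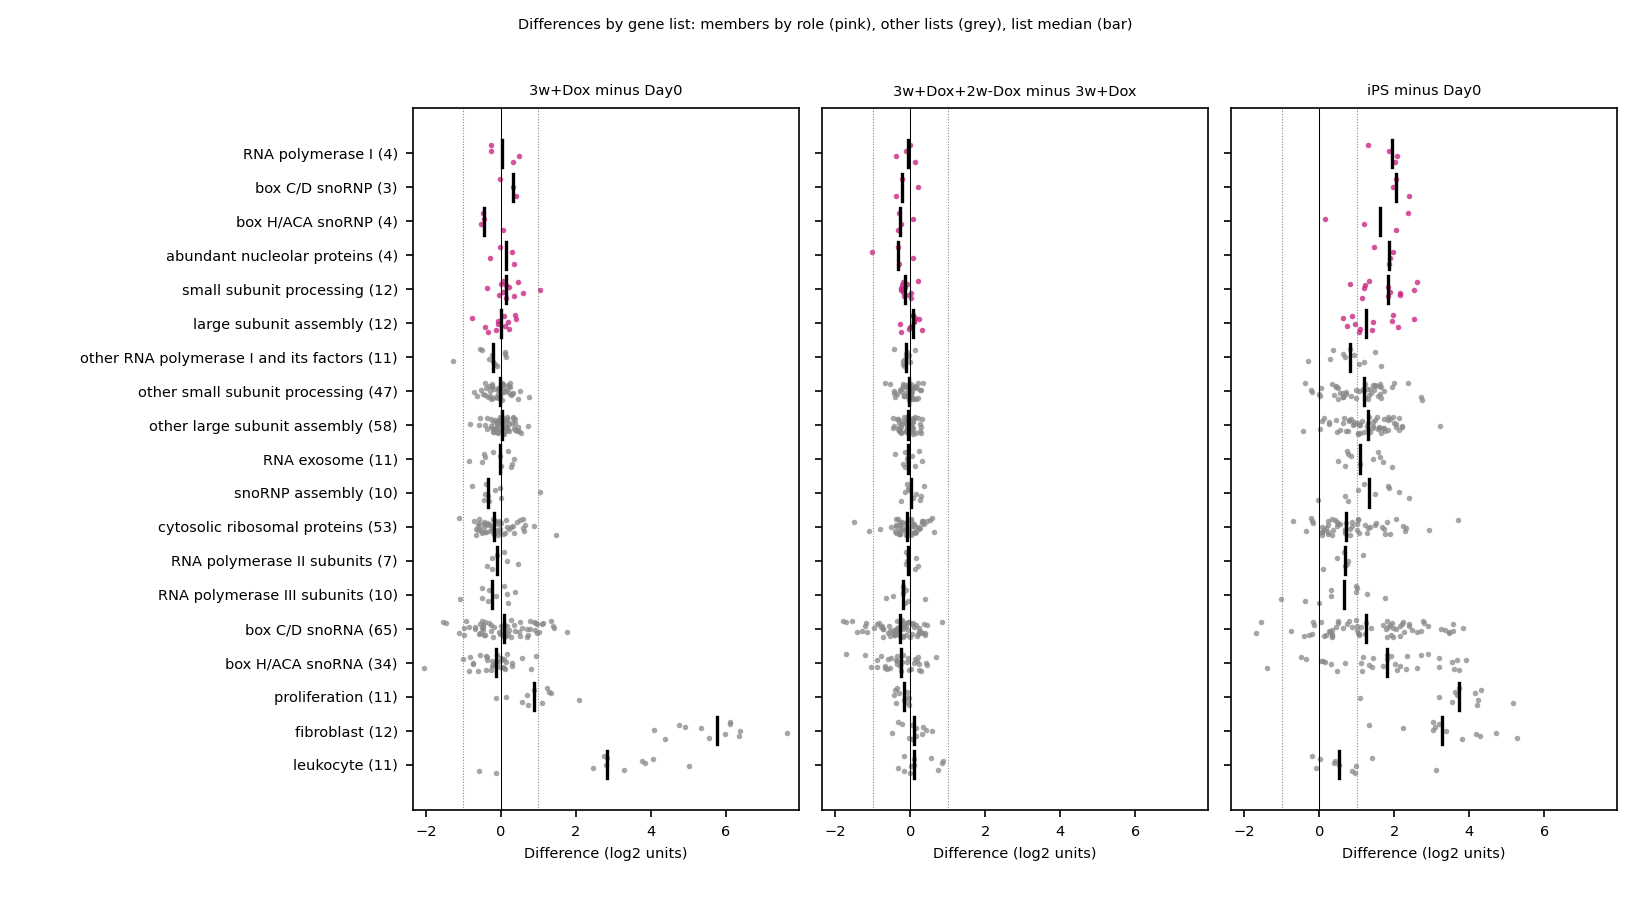
Log2 difference of each gene (points) and the median (black bar) for the members by role (pink) and other lists (grey), with the number of genes in brackets, in 3 comparisons. Dotted lines mark 2-fold. In the comparison of iPS with Day0 every pathway list drawn has its median above 0, and in the other 2 panels the medians of the 6 role groups drawn lie between -0.46 and 0.31. Srm, a role of its own, is not drawn.

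Most of these genes differed little between 3w+Dox and Day0. Of the 40 genes, 2 were at least 2-fold higher and 0 lower, against 8.67% of all named genes higher and 7.52% lower (15.3% and 13.3% of genes that reached 6.67 on either array). The median difference was 0.07, beside -0.09 over all named genes, and 37 genes stayed within 1.5-fold. On the same arrays fibroblast markers differed by a median of 5.76, leukocyte markers by 2.84, ciliated markers by -3.32 and proliferation genes by 0.88. The 2 higher genes were Utp20 and Srm (Entrez gene 20810), spermidine synthase, an enzyme of polyamine synthesis and a known Myc target, which read 10.19 in Day0 cells, 11.38 after 3w+Dox, 11.35 after withdrawal and 12.73 in iPS cells. Next came Wdr75 at 0.58, Polr1e at 0.48 and Heatr1 at 0.45, and on the lower side Gnl2, Nhp2 at -0.52, Dkc1 at -0.47, Nop10 at -0.45 and Rrp1b at -0.42. Of the 137 genes in the 5 other pathway lists, 1 was at least 2-fold higher, Znhit6, a snoRNP assembly factor (1.03), and 1 lower, Taf1a (-1.28).

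Between withdrawn cells and 3w+Dox the signals of these genes were closer still, as were those of named genes at large. Of the 40 genes, 0 were at least 2-fold higher than at 3w+Dox and 1 lower, Npm1 (-1.03), against 1.45% and 1.88% of all named genes (2.68% and 3.47% of the brighter ones, as above). The median difference was -0.05, beside 0.03 over all named genes, and 39 genes stayed within 1.5-fold. Within 2-fold were 39 of the 40 genes and 22251 of all 23185 named genes. The largest increases were those of Mrto4 (0.32), Gnl3 (0.23) and Nop56 (0.22), and the decreases after Npm1 were those of Nop58 (-0.38), Polr1e (-0.37), Ncl (-0.33) and Gar1 (-0.31). Ciliated markers differed by a median of 1.73 in this comparison and fibroblast markers by 0.11.

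Withdrawn cells against Day0 gave 1 gene at least 2-fold higher, Srm by 1.16, and 0 lower, against 7.85% and 7.76% of all named genes (13.9% and 13.8% of the brighter ones). The median difference was 0.01, but the genes spread to both sides, with 21 above 0 and 19 below. All named genes did so too, with 9959 above 0 and 13187 below. Utp20 (0.80), Gnl3 (0.64), Wdr75 (0.60) and Nop56 (0.53) followed Srm on the higher side, and Npm1 (-0.75), Gnl2 (-0.64) and Utp18 (-0.62) followed Nhp2 and Dkc1 on the lower side. The comparisons above share arrays with each other, so their counts are not independent.

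Most of the 40 genes were also higher in iPS cells than in each cultured club cell population. Against 3w+Dox, 35 of the 40 genes were at least 2-fold higher in iPS cells and 0 lower, against 11.4% and 12.4% of all named genes (19.9% and 21.8% of the brighter ones), with a median of 1.57. At least 4-fold higher were 10, against 3.57%. Against withdrawn cells 34 were higher and 0 lower, against 11.5% and 12.5% (19.9% and 21.6% of the brighter ones), with a median of 1.68, and 11 were at least 4-fold higher, against 3.83%. Dkc1 (2.82), Rrp1b (2.52), Rrp9 (2.20), Nolc1 (2.18) and Heatr1 (2.17) stood furthest above 3w+Dox. Nop10 (0.60), Rrs1 (0.62), Nop16 (0.80), Utp3 (0.82) and Nip7 (0.86) stood least above it. Proliferation genes were higher in iPS cells than at 3w+Dox by a median of 2.97 and fibroblast markers lower by a median of 2.48.

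Myc family genes, known regulators of this pathway, had profiles that differed from each other. Myc read 7.62 in Day0 cells, 10.79 after 3w+Dox, 9.75 after withdrawal and 9.09 in iPS cells, highest at 3w+Dox. Whether its probe set also reads a transgene copy was not tested. Mycn read 5.88, 6.20, 6.63 and 11.12, and was highest on the iPS array, as all 40 genes were. Mycl read 10.36, 5.90, 7.22 and 8.21, highest at Day0. Among the partners and antagonists of Myc, Max read 10.55, 11.28, 10.29 and 10.38, Mxd1 read 9.65, 10.69, 9.23 and 8.05, and Mxd4 read 10.22, 9.66, 9.31 and 6.53. The 6 genes with CACGTG in the promoter differed at 3w+Dox from Day0 by 1.04 (Utp20), 0.37 (Nop2), 0.32 (Rrn3), 0.05 (Wdr43), -0.09 (Pes1) and -0.37 (Utp18).

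**Figure D4:**
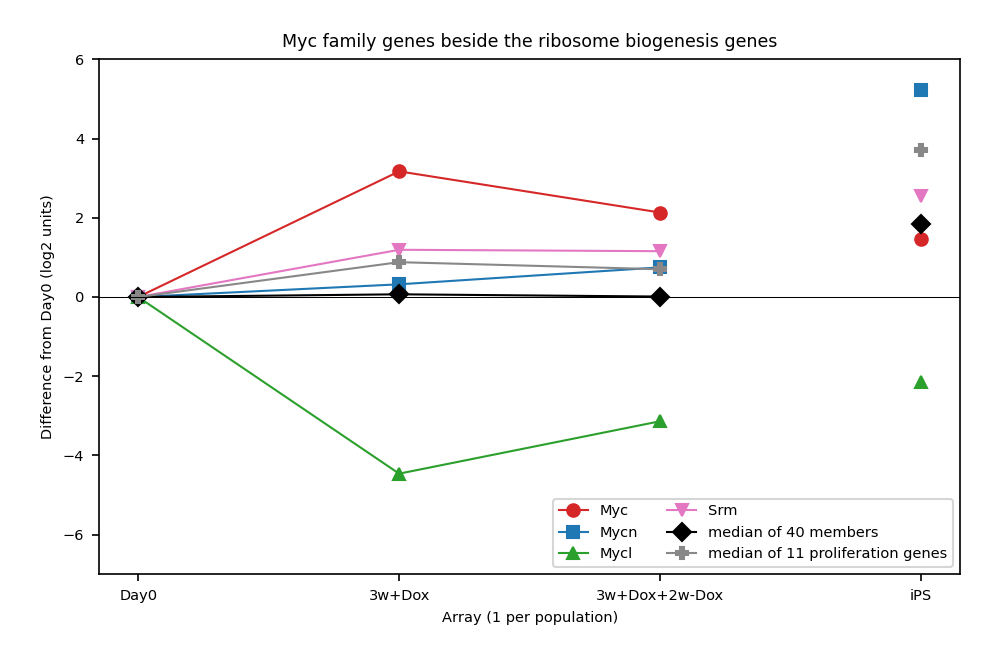
Difference from Day0 (log2 units, vertical axis) of Myc, Mycn, Mycl and Srm and of the medians of the 40 genes and of 11 proliferation genes on the 4 arrays (horizontal axis, 1 array each). At 3w+Dox Myc stands at 3.17 and the median difference of the 40 genes at 0.07, and on the iPS array Mycn stands at 5.23 and the 40 genes at 1.85.

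Srm stood further above Day0 in iPS cells than any of 7 other genes of polyamine metabolism. Of these 7, 0 were at least 2-fold higher in iPS cells than at Day0 and 2 lower, with a median of -0.66. This list mixes synthesis with breakdown and inhibition, and its 2 lower genes were Sat1 and Oaz2, so its median does not describe synthesis alone. Odc1, the rate-limiting enzyme, read 7.84 in Day0 cells, 8.00 after 3w+Dox, 8.12 after withdrawal and 8.56 in iPS cells. Sms, spermine synthase, which uses the product of Srm, read 10.23, 8.37, 8.50 and 10.03. It was lower in both cultures while Srm was higher. Sat1, which starts polyamine breakdown, differed by -1.43 between iPS and Day0 and Oaz2, an antizyme that holds back Odc1, by -1.06.

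The arrays also read the RNA partners of the snoRNP proteins, a group added after these values had been seen. Of 65 box C/D snoRNAs, 55 had their highest signal on the iPS array, and of 34 box H/ACA snoRNAs 30 did. Among the named genes that reached 6.67 on any array the share was 38.0%. Of these snoRNAs, 17 box C/D and 4 box H/ACA lay below 6.67 on every array, where the highest array is uncertain. Between iPS and Day0 the box C/D RNAs differed by a median of 1.25, with 33 at least 2-fold higher and 2 lower (Snord71 and Snord13). The box H/ACA RNAs differed by 1.81, with 23 higher and 1 lower (Snora70). Of all named genes, 13.1% were higher and 12.4% lower. Snora34 read 7.18 in Day0 cells, 6.79 after 3w+Dox, 5.91 after withdrawal and 11.09 in iPS cells. Between 3w+Dox and Day0 the medians were 0.08 for box C/D and -0.14 for box H/ACA RNAs. Between withdrawn cells and Day0 the box C/D median was -0.24, with 43 of 65 RNAs below 0. The box H/ACA median was -0.49, with 26 of 34 below 0. Of all 23185 named genes, 13187 lay below 0 in this comparison, with a median of -0.08.

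Members of the protein set also carry snoRNAs. By RefSeq gene bounds, 10 snoRNAs lie inside 5 of the 40 genes. Of the 10, 9 were highest on the iPS array, against 38.0% of the named genes that reached 6.67 on any array. Snora75, within Ncl, read 6.72 in Day0 cells, 6.46 after 3w+Dox, 6.44 after withdrawal and 10.43 in iPS cells, a difference from Day0 of 3.71 against 1.45 for Ncl. Snord82, also within Ncl, read 12.28, 11.69, 11.74 and 12.08, highest at Day0. Snord53 and Snord92 within Wdr43 differed by 3.34 and 2.15, Snord70 and Snord11 within Nop58 by 3.45 and 1.80, Snord110 and Snord57 within Nop56 by 2.76 and 0.32, and Snord69 and Snord19 within Gnl3 by 2.61 and 0.74. Snord19 and Snord92 lay below 6.67 on every array, where folds are inexact. Signal from a mature snoRNA and from the intron that holds it cannot be told apart here.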

How the data were processed

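Total RNA of 4 cell populations, 1 sample each, was taken up with RNeasy and biotin-labelled after preparation by an Ambion WT kit, per the labels' protocols. The deposited table holds log2 signals, made by the authors with RMA, affy and R 3.0.2, per the submitters' processing notes. RMA as a method corrects background, quantile-normalizes arrays and summarises probe sets by median polish. Values run from 1.70 to 13.85, as log2 signals do. The sources used here name neither genome build nor probe set annotation. Of 25206 probe sets, named by Entrez gene ID, 23185 had 1 symbol in the platform annotation, 0 had several and 2021 stayed unnamed and were left out. There were 0 missing values. The number of arrays limits the precision.

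No value was transformed again. Each of 6 comparisons is a difference of log2 signals, called at 2-fold with the brighter array at or above 6.67, and lists are given by counts and medians beside all named genes. No test, p-value or interval was possible with 1 array per population. Genes and lists were chosen with earlier results of these data known. Of the 40 genes, named in full were the 5 largest differences each way per comparison, 2 per role by range and those at least 0.5 against most genes; of the rest, values were added after they had been seen. From other lists up to 3 genes per comparison were named, beside a set of check genes (Myc, Mycn and Ubtf among them) and Rpl10, Mycl, Max, Mxd1, Odc1, Sbds, Utp11, Rrp7a, Tsr2, Riok3 and the snoRNAs, picked after their values were seen. Alternatives were other fold thresholds (1.5-fold, 4-fold), brightness filters (none, 75th percentile, 8.82), a second quantile normalization, centring on brighter genes, a floor at 5.07 (the 25th percentile), the mean, leaving out Srm, and other pathway genes as the set. Python 3.11.15, pandas 2.3.3, numpy 2.4.6 and matplotlib 3.10.9 were used.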

Additional observations from a re-analysis of the deposited data

How the results depend on the processing

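No paired analysis was possible because each population has 1 array. A second quantile normalization, centring on brighter genes and a raised floor moved no median of the 40 genes by more than 0.1, although the median for withdrawn cells against Day0, close to 0, went from 0.01 to -0.016 under a second quantile normalization; all 40 genes stayed highest on the iPS array under each. The fold threshold sets the counts. At 4-fold, 13 genes were higher in iPS cells than at Day0, 10 than at 3w+Dox and 11 than in withdrawn cells, and 0 were higher at 3w+Dox or in withdrawn cells than at Day0 or lower in withdrawn cells than at 3w+Dox. At 1.5-fold, 1 was lower at 3w+Dox than at Day0, and 4 were higher and 5 lower in withdrawn cells than at Day0. The pair higher at 3w+Dox than at Day0 became 1 under a second quantile normalization and 1 with the filter at 8.82, and Npm1, the 1 gene lower after withdrawal, became 0 under centring on brighter genes and with that filter. The mean instead of the median gave 1.66 for iPS against Day0. With 116 other pathway genes as the set, the median was 1.18 for iPS against Day0, 1.21 against 3w+Dox, 1.27 against withdrawn cells, and -0.091 for withdrawn cells against Day0. The cause of these shifts was not tested. Dim probe sets, several snoRNAs and ribosomal protein genes among them, lie near background, where folds are inexact.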

Other observations

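Dyskerin (Dkc1), Nop10, Nhp2 and Gar1 are also parts of telomerase, the enzyme that extends chromosome ends. Terc, the telomerase RNA, read 11.54 in Day0 cells, 10.32 after 3w+Dox, 10.42 after withdrawal and 13.80 in iPS cells. Tert, the reverse transcriptase, read 6.37, 6.48, 6.64 and 8.80. The iPS array was highest for both, and Terc, like Dkc1, was lower in the 2 cultured club cell populations than at Day0. The iPS signal of Terc lies near the top of the scale, at 13.85.

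RNA polymerase III, which makes the 5S ribosomal RNA, has a subunit encoded by a pair of related genes whose iPS signals lay on opposite sides of Day0. Polr3g read 8.29 in Day0 cells, 7.79 after 3w+Dox, 7.13 after withdrawal and 10.04 in iPS cells, and Polr3gl read 8.54, 7.46, 7.85 and 7.50. Both were lower in the cultured club cell populations than at Day0. A few other structured RNAs were also read. Rmrp, the RNA of an endonuclease that cuts precursor ribosomal RNA, read 12.08, 12.22, 12.06 and 13.09, the U3 RNA gene Rnu3a 7.63, 7.38, 7.50 and 9.00, and Rn7sk, a regulator of RNA polymerase II, 13.54, 13.37, 13.42 and 13.50. These genes were picked after their values had been seen, and no replicate bears on the differences.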
